A study of Arabidopsis thaliana with 14 samples.

Results

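The genes described here are the core of the Arabidopsis photoperiod pathway, chosen by name from the count tables: GI, FKF1, ZTL, LKP2, CO, COL1, COL2, CDF1, CDF2 and CDF3. They are 10 of 34218 genes counted, and all 10 passed the filter on low counts that left 20077 genes to test. FKF1 passed it through its libraries of 3 h after injection alone, so that it could be tested only because it was read there. All plants were ft-10, a line with a lesion in the florigen gene FT, and all samples were rosette leaves of 30-day-old plants kept in soil at 22 °C under 16 h of light and 8 h of dark. Silk microneedles pushed into the leaf carried the gibberellin GA3 at 15 mM or carried none (mock). The 5 groups were leaves without injection at 0 h (untreated), leaves with GA3 needles after 3 h, 24 h or 168 h, and leaves with mock needles after 24 h. Each group had 3 libraries, apart from the 168 h group, which had 2. The ft-10 lesion is shared by every group, and no group had an intact FT gene for comparison. No mock needle was sampled at 3 h or 168 h, and the sources used here do not give the clock hour of injection or harvest. Differences from untreated leaves at 3 h therefore join needle, GA3 and a later hour of the day, which cannot be told apart. Those at 168 h join needle, GA3 and the 168 h that passed, with any difference in plant age, and cannot be told apart either. The labels give 30 days for every group, so a difference in age at 168 h cannot be read from them. Those at 24 h join the needle, GA3 where given, and the 24 h that passed.

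As background, long days speed flowering in Arabidopsis through CONSTANS (CO), a B-box protein that switches on FT in the leaf vasculature. CDF proteins are DOF repressors that sit on the CO and FT promoters in the morning. In the light of the late day the blue-light receptor FKF1 binds the large clock-controlled protein GIGANTEA (GI), and the complex has CDF proteins degraded, which frees CO for transcription. ZTL and LKP2 are relatives of FKF1 with the same LOV, F-box and Kelch parts, and ZTL with GI also turns over clock proteins. COL1 and COL2 are the closest relatives of CO and are known as genes of the early day.

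Libraries held 20448913 to 26537437 reads, of which 88.8% to 95.8% were counted in genes. Leaf markers were high, as 4 mesophyll markers summed to between 6666 and 32690 CPM in every library, whereas 4 shoot meristem markers summed to at most 0.397 CPM and 5 floral organ markers to at most 1.22 CPM, with WUS and CLV3, which define the stem cell niche, at 0 in every library. CPM, the unit of all levels here, is a gene's read count scaled to the size of its library. The mesophyll sum was lower at 3 h (14070 to 23570 CPM) and at 168 h (6666 to 9910 CPM) than in untreated leaves (24300 to 28940 CPM). It was also lower with mock at 24 h (16330 to 22330 CPM) than in untreated leaves or with GA3 at 24 h (23450 to 32690 CPM), with no overlap. At 3 h 6 phloem markers summed to 825 to 935 CPM against 1112 to 1285 CPM untreated. The sum does not stand for each marker. The mean of SWEET12 was higher at 3 h (54.1 against 41.9 CPM untreated), while the means of the others were lower. Xylem markers summed to 8.99 to 26.2 CPM at 168 h, 111 to 170 CPM at 24 h of GA3 and 74.6 to 113 CPM with mock, against 65.2 to 93.3 CPM untreated. The part of these shifts in the results on photoperiod genes was not tested. Markers of a list did not shift alike. At 168 h CA1 averaged 148 CPM against 3408 CPM untreated, and LHCB2.1 2188 CPM against 3917 CPM. In whole leaves, fewer cells of a type, less RNA per cell and changes of single marker genes cannot be told apart.

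Per kilobase of transcript, the members differed widely in untreated leaves. COL1 was at 57.1 ± 19.4 CPM per kilobase (mean ± SD, n = 3) and CDF3 at 35.4 ± 8.91 CPM per kilobase, which did not differ beyond their spread. ZTL (19.9 ± 0.629), CDF2 (19.2 ± 3.01), COL2 (17.8 ± 3.21), CDF1 (13.5 ± 6.16) and LKP2 (11.9 ± 1.52 CPM per kilobase) followed. The ZTL libraries reached 20.42 CPM per kilobase and lay below every CDF3 library, the lowest of which was at 27.95. Each member after ZTL lay within the spread of the one before it. GI stood well below them at 1.37 ± 0.184 CPM per kilobase, CO lower again at 0.302 ± 0.18, and FKF1 had no read at all.

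The upstream sequences of the members shared few of the searched motifs. Those of FKF1 and COL2 are shown because FKF1 was lower and COL2 higher at 24 h than at 3 h of GA3 while both hold the evening element, and that of CDF2 because it alone holds a G-box. Windows of 250 bases before to 50 bases after the annotated gene start were searched on both strands for the evening element AAAATATCT, the CCA1-binding site AAAAATCT, the G-box CACGTG, the CO-responsive element TGTGNNATG and its form with a spacer 1 base longer, and the DOF core AAAG. The evening element was in FKF1 and COL2, 2 of 10 members against 2.82% of 27443 protein-coding genes. In FKF1 it lies on the minus strand of the gene, beginning 186 bases before the start, with a second match at the first transcribed base. In COL2 it begins 189 bases before the start on the gene's own strand. The G-box was in 1 member, CDF2, 77 bases before the start (7.68% of genes), the CCA1-binding site in LKP2 alone (7.88%) and the shorter CO-responsive element in GI alone (3.96%). The longer one was in no member (4.9%). The DOF core is too common to tell genes apart, being in all 10 members and 99.1% of genes, with 19 matches in CDF2 and 2 each in GI and COL2, against a mean of 5.03 per window. A match describes letters in these windows and nothing more. The 250 bases before the start, from the RefSeq genome TAIR10.1, are given on the strand of the gene, with the evening element or G-box in capitals.
FKF1, chr1:25508389-25508638, plus strand: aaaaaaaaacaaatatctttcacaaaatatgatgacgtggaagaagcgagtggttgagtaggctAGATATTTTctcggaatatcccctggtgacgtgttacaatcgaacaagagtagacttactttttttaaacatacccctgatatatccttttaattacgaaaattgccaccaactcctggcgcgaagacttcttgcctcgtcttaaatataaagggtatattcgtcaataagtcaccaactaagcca
COL2, chr3:489468-489717, minus strand: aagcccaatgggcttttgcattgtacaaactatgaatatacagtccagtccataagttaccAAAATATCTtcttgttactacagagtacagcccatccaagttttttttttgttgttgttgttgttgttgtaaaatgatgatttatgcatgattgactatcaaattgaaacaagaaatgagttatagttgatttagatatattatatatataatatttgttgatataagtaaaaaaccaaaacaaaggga
CDF2, chr5:15878448-15878697, plus strand: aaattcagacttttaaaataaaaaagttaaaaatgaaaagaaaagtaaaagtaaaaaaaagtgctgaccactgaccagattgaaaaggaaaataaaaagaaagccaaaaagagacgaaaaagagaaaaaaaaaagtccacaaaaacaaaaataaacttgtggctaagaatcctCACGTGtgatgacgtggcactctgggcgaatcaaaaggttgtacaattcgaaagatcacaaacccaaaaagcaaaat

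GI (AT1G22770, chromosome 1, 8061751 to 8067790, plus strand, 14 exons, TAIR10.1) passed the test against untreated leaves in all 4 injected groups, which no other member did. Untreated leaves held 6.59, 6.08 and 5.04 CPM. GA3 leaves at 3 h held 97.6, 92.4 and 65.8 CPM, and at 168 h 80.1 and 65.2 CPM. At 24 h the GA3 leaves held 55.3, 37.8 and 13.8 CPM and the mock leaves 20.4, 27.3 and 19.3 CPM. Every injected library thus lay above every untreated one, the GA3 and mock libraries of 24 h overlapped, and those of 3 h and 168 h overlapped. Against untreated leaves GI rose by a log2 fold change of 3.85 ± 0.42 at 3 h of GA3 (fitted value ± SE, adjusted p = 0.000314), 3.62 ± 0.43 at 168 h (adjusted p = 0.000513), 2.59 ± 0.40 at 24 h (adjusted p = 0.0109) and 1.92 ± 0.39 with mock at 24 h (adjusted p = 0.0497). These comparisons share the untreated libraries. The mock call was lost without any 1 of its 6 libraries (adjusted p from 0.0647 without untreated replicate 1 to 0.213 without untreated replicate 3), at log2 fold changes of 1.75 to 2.02. The call at 24 h of GA3 was lost without untreated replicate 3 (adjusted p = 0.0603).

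FKF1 (AT1G68050, chromosome 1, 25508639 to 25510907, plus strand), the blue-light partner of GI and a member with an evening element, was read mainly at 3 h. It had 29, 62 and 126 counts in the GA3 3 h libraries, which is 1.28, 3.03 and 5.18 CPM. It had 0 counts in all 3 untreated and all 3 GA3 24 h libraries, 0, 0 and 5 in mock, and 1 and 5 at 168 h. A count of 0 over the untreated group allows a level of up to 0.0469 CPM, taking 3 counts as the limit, and this covers counting error only. The observed level of FKF1 over the GA3 3 h group was 68.6-fold above that limit for untreated leaves. It was 65.8-fold above the same limit for 24 h of GA3. These ratios leave out the spread of the 3 h libraries and are no minimum for a single library. No p is given for these, because FKF1 entered the test through the libraries in which it was high.

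ZTL and LKP2, which share the domain plan of FKF1, did not follow it. ZTL (AT5G57360, chromosome 5, 23241320 to 23244590, plus strand) held 46.8, 48.8 and 49.9 CPM in untreated leaves and 51.3, 50.5 and 51.2 CPM at 3 h of GA3, where its libraries spread less than those of any other member. It rose at 168 h, to 77.28 and 77.31 CPM, above all 12 other libraries, which lay at or below 60.7 CPM. The log2 fold change at 168 h was 0.67 ± 0.16 against untreated (adjusted p = 0.0103) and 0.68 ± 0.16 against 24 h of GA3 (adjusted p = 0.0129). Without 168 h replicate 2 the adjusted p was 0.0721 and 0.0974. LKP2 (AT2G18915, chromosome 2, 8194512 to 8197483, minus strand) kept between 17.1 and 30.9 CPM in the 14 libraries and passed the test in none of the 7 comparisons. The groups of LKP2 with the lowest means were GA3 and mock at 24 h, at 20.4 ± 4.68 and 20.2 ± 1.77 CPM.

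**Figure D1:**
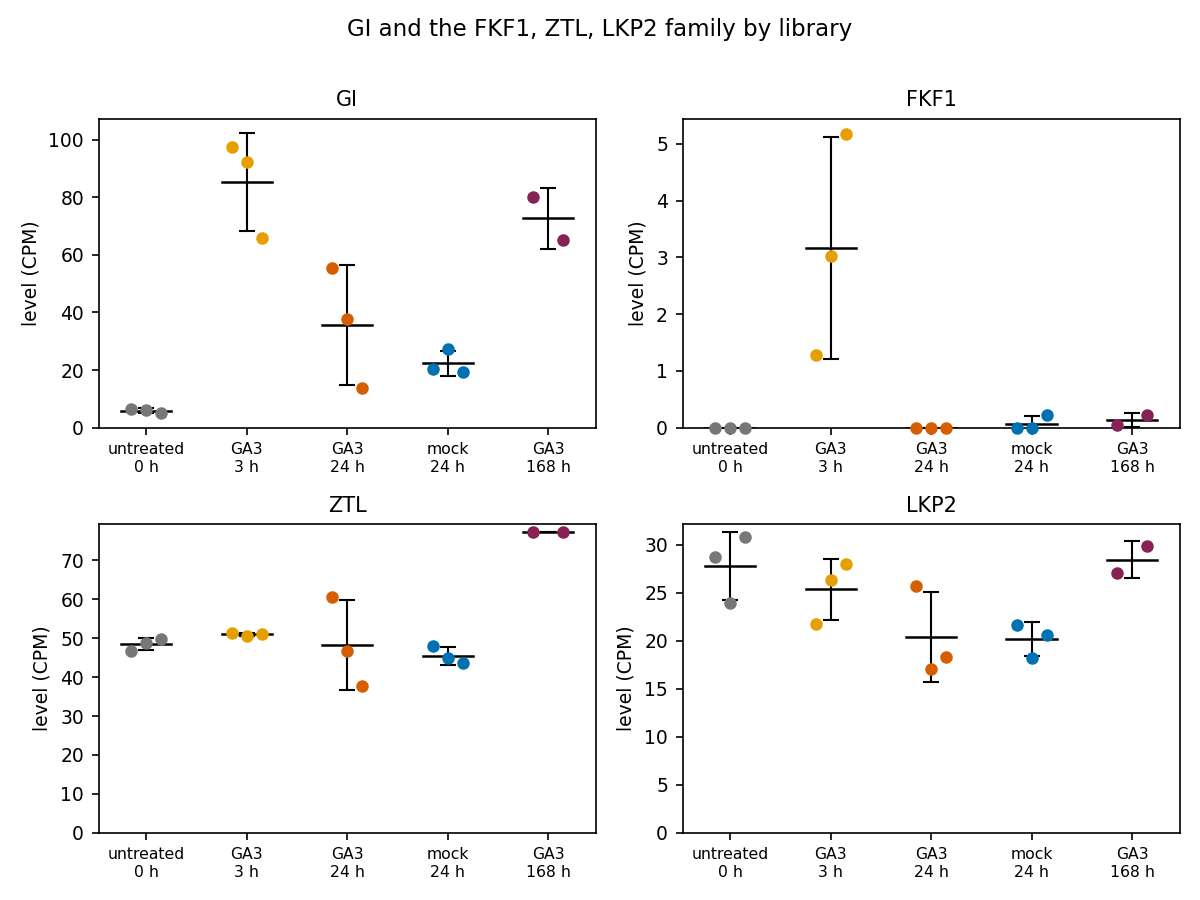
Levels of GI, FKF1, ZTL and LKP2 (CPM, y axis from 0) in each library of the 5 groups; points are libraries, lines the mean and bars the SD. FKF1 reaches 1.28 to 5.18 CPM in the 3 GA3 3 h libraries and at most 0.225 CPM elsewhere, GI is above its untreated level in every injected library, and ZTL stands apart at 168 h.

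The CDF repressors did not move together. CDF2 (AT5G39660, chromosome 5, 15878698 to 15881537, plus strand) fell at 3 h of GA3, to 11.03, 8.98 and 16.6 CPM from 37.2, 43.6 and 51.0 CPM in untreated leaves (log2 fold change -1.85 ± 0.36, adjusted p = 0.00675). By 24 h of GA3 it was back at 21.5, 39.6 and 31.1 CPM (1.33 ± 0.35 against 3 h, adjusted p = 0.0330). All 3 libraries of 3 h lay below all of the untreated and GA3 24 h libraries, while the groups of 0 h, 24 h and 168 h overlapped. The recovery lost its call without GA3 3 h replicate 1 (adjusted p = 0.0828) or replicate 2 (0.111) and without GA3 24 h replicate 2 (0.129) or replicate 3 (0.0706).

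CDF1 (AT5G62430, chromosome 5, 25069093 to 25071111, minus strand) had its lowest group mean before injection, at 11.8, 28.9 and 17.1 CPM. It stood at 43.7, 44.5 and 35.5 CPM at 3 h of GA3, 47.3, 58.1 and 36.7 CPM at 24 h, and 48.6, 41.8 and 20.4 CPM in mock. At 168 h it had risen to 56.6 and 64.4 CPM (log2 fold change 1.65 ± 0.38 against untreated, adjusted p = 0.00768, and 0.0608 without 168 h replicate 2). The earlier GA3 groups did not pass edgeR's test against untreated leaves (adjusted p = 0.0552 at 3 h, with 0.0211 to 0.158 under the alternatives, and 0.0548 at 24 h, with 0.00705 to 0.185), although neither overlapped the untreated libraries. Without untreated replicate 2, the highest of its group, both passed (adjusted p = 0.0264 and 0.0430). The mock libraries overlapped the untreated ones. CDF3 (AT3G47500, chromosome 3, 17503883 to 17506124, minus strand) passed in none of the 7 comparisons. Its libraries of 3 h ranged from 31.1 to 94.7 CPM, those of 24 h of GA3 from 41.2 to 94.8 CPM and those of 168 h from 82.5 to 147 CPM, while mock kept to 39.4 to 44.5 CPM.

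CO itself (AT5G15840, chromosome 5, 5170162 to 5173085, minus strand) was near the limit of detection, with 1 to 31 counts per library. Untreated leaves had 31, 12 and 10 counts, GA3 leaves at 3 h 10, 13 and 3, and at 24 h 7, 8 and 14. Mock leaves had 1, 4 and 2 counts and leaves at 168 h of GA3 had 5 and 2. In CPM the untreated mean was 0.812 ± 0.485 (n = 3), against 0.12 ± 0.0846 in mock (n = 3) and 0.149 ± 0.0872 at 168 h (n = 2), groups that did not overlap with the untreated one. Exact Poisson 95% intervals over each group, for counting error only, were 0.62 to 1.08 CPM untreated, 0.0474 to 0.243 CPM in mock and 0.0601 to 0.308 CPM at 168 h. CO passed edgeR's test in no comparison, with adjusted p = 0.12 for mock and 0.052 for 168 h against untreated. DESeq2 gave adjusted p = 0.0349 and 0.0276, the lowest of the alternatives for each, which reached 0.308 and 0.263.

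COL1 and COL2, by contrast, were among the abundant members. COL1 (AT5G15850, chromosome 5, 5176091 to 5177897, minus strand), which lies next to CO, fell at 3 h of GA3, to 52.4, 46.5 and 43.8 CPM from 134, 72.6 and 83.7 CPM untreated (log2 fold change -1.03 ± 0.24, adjusted p = 0.0151, and 0.0502 without GA3 3 h replicate 2). At all other times its groups overlapped the untreated one. COL2 (AT3G02380, chromosome 3, 487069 to 489467, minus strand) held 31.8, 44.1 and 44.6 CPM in untreated leaves and 29.0, 15.8 and 3.45 CPM at 3 h. At 24 h it held 75.9, 95.5 and 89.7 CPM with GA3 and 62.3, 75.9 and 66.7 CPM with mock. Both 24 h groups lay above every untreated and every 3 h library. COL2 rose from 3 h to 24 h of GA3 by a log2 fold change of 2.44 ± 0.51 (adjusted p = 0.0134, 0.0548 without GA3 3 h replicate 2, and 3.20 ± 0.51 without GA3 3 h replicate 1). Against untreated leaves it did not pass at 3 h (adjusted p = 0.0966, with 0.0215 to 0.248 under the alternatives) or at 24 h of GA3 (0.203, with 0.0587 to 0.366). The 3 h call appeared without GA3 3 h replicate 1 (adjusted p = 0.0215) or replicate 3 (0.0447).

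**Figure D2:**
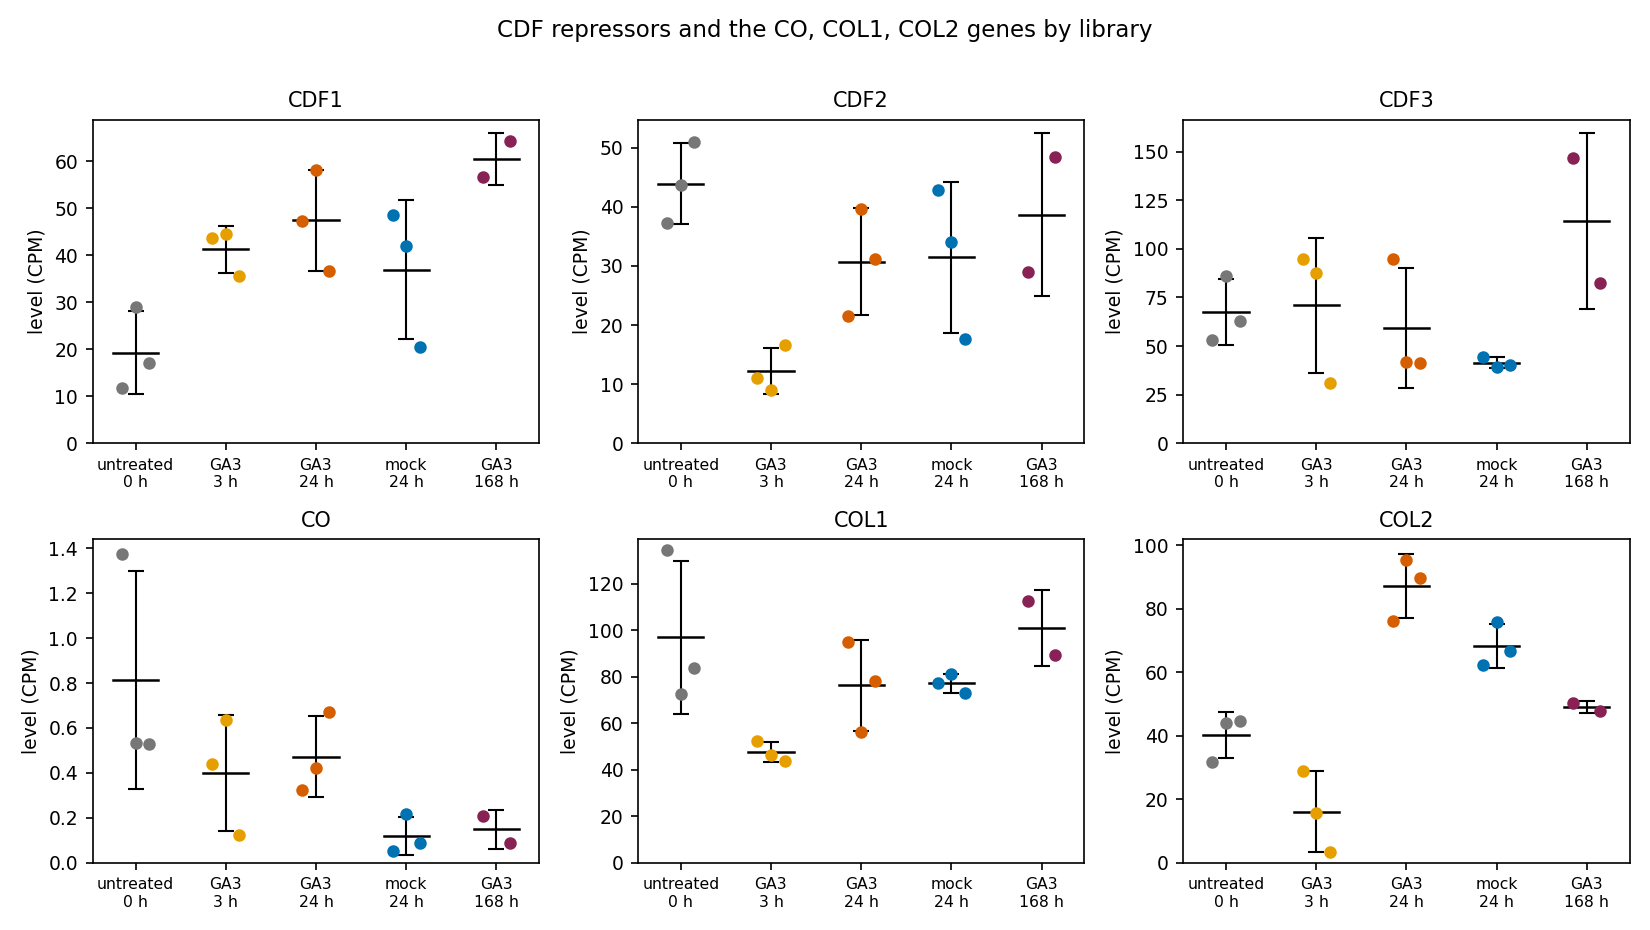
Levels of CDF1, CDF2, CDF3, CO, COL1 and COL2 (CPM, y axis from 0) in each library; points are libraries, lines the mean and bars the SD. CDF2, COL1 and COL2 are lowest at 3 h, COL2 is highest in the 24 h groups with and without GA3, and CO stays at or below 1.37 CPM throughout.

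GA3 against mock at 24 h is the only comparison at a matched time and asked what GA3 added to the needle. None of the 10 members passed edgeR's test, nor did any with DESeq2 or limma-voom. Of all 20077 genes 0% passed in edgeR's test and 0 with limma-voom, while DESeq2 called 47. In edgeR's test 1 member had an unadjusted p under 0.05, against 1322 of all genes. That member was CO, which averaged 0.472 ± 0.179 CPM in GA3 leaves and 0.12 ± 0.0846 CPM in mock leaves. Its fitted log2 fold change was 1.94 ± 0.79 (adjusted p = 0.75 by edgeR, with 0.517 to 0.999 under the alternatives), and 2.60 ± 0.95 without mock replicate 2. The lowest GA3 library had 0.326 CPM of CO and the highest mock library 0.215 CPM. GI was fitted at 0.67 ± 0.37, CDF3 at 0.52 ± 0.42, CDF1 at 0.36 ± 0.34 and COL2 at 0.35 ± 0.49. ZTL (0.09 ± 0.15), LKP2 (0.02 ± 0.18), COL1 (-0.01 ± 0.24) and CDF2 (-0.04 ± 0.35) lay close to 0. GI moved to 0.21 without GA3 24 h replicate 1, the library with the highest GI of its group, and CDF3 to 0.0010. The mesophyll marker sum differed between these groups as given above, and its part in these values was not tested. FKF1 had 0 counts with GA3 and 5 in 1 mock library. COL2 and CO were the 2 of 10 members whose libraries did not overlap, against 13.9% of all genes, and for COL2 the gap was between 75.94 CPM with GA3 and 75.93 CPM with mock.

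The counts of members that passed can be read against all 20077 genes. FKF1 is left out of these counts, since it was tested only because it was high at 3 h. At 3 h of GA3 against untreated, 3 of the other 9 members passed, against 14.2% of genes. GI rose, against 8.55% of genes, and COL1 and CDF2 fell, against 5.64%. From 3 h to 24 h of GA3, 2 of 9 passed, against 11.4% of genes. COL2 and CDF2 rose, against 5.68%, and none of the 9 fell, against 5.72%. For mock against untreated 1 member, GI, passed, against 0.777% of genes, with 0.608% of genes higher and 0.169% lower. For GA3 at 24 h against untreated GI alone passed, against 4.93%, with 2.92% higher and 2% lower. At 168 h against untreated 3 members passed, GI, ZTL and CDF1, all up, which was close to the 31.2% of genes that passed (15.1% higher, 16.1% lower). Against 24 h of GA3 1 member rose at 168 h, ZTL, against 24.2% of genes (10.3% higher, 13.9% lower). Counting all 10 members, the libraries of 7 members did not overlap between 3 h and untreated leaves, against 32.9% of genes, and those of 6 between 168 h and untreated leaves, against 56.3%. For mock against untreated it was 5 members against 24.9%, and for GA3 at 24 h against untreated 3 against 27.9%. Between 3 h and 24 h it was 5 against 31.8%, and between 24 h and 168 h 6 against 54.5%. FKF1 was among these members in each of the comparisons that involve 3 h or 168 h. In those with 3 h its lack of overlap carries no weight, since it was tested only because it was high there. With total counts as library size, the median of all genes moved to 0.12 at 3 h and 0.21 at 168 h against untreated, to -0.19 from 3 h to 24 h and to 0.28 from 24 h to 168 h. No called member changed sign under any of the scalings.

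**Figure D3:**
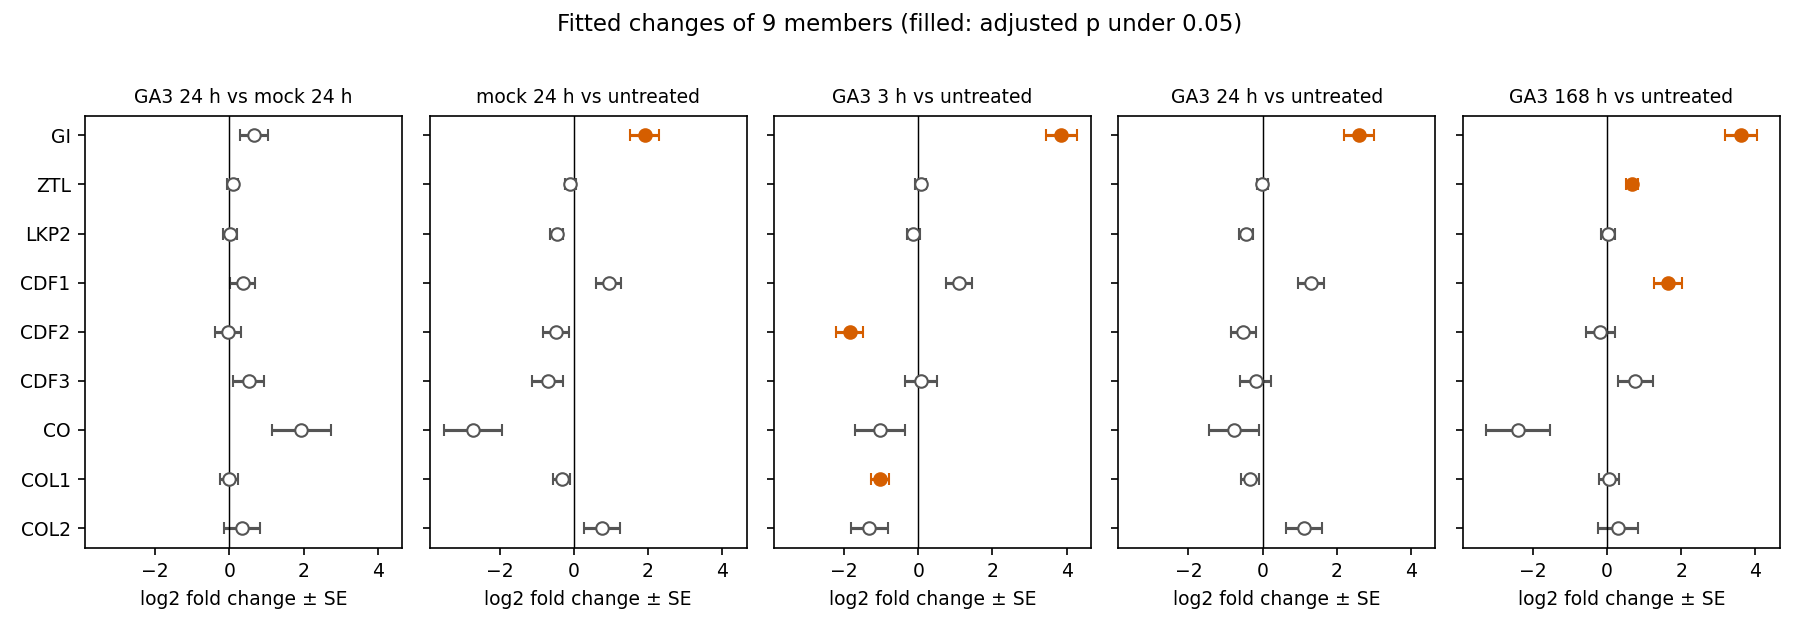
Log2 fold changes (x axis, fitted value ± SE) of 9 members in 5 comparisons; filled points passed edgeR's test (adjusted p under 0.05) and FKF1 is left out because its untreated level is 0. GI is above 0 in each of the 4 comparisons with untreated leaves, while CDF2 lies at -1.85 at 3 h, on the other side of 0 from CDF1, which did not pass there.

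Other genes of the pathway, from lists chosen with earlier results of these data known, moved beside the members. Of 10 clock genes, 3 rose and 1 fell at 3 h of GA3 against untreated, where 8.55% of all genes rose and 5.64% fell. LHY, a dawn-phased repressor of evening genes such as GI, averaged 126 ± 11.1 CPM untreated and 33.3 ± 7.41 CPM at 3 h, a fitted change of -1.92 ± 0.24 (adjusted p = 0.000781), and PRR5, a repressor that acts later in the day, rose from 1.25 ± 0.993 to 11.4 ± 2.89 CPM (3.19 ± 0.65, adjusted p = 0.00861, and 4.04 without untreated replicate 3). From 3 h to 24 h of GA3 both turned, LHY to 233 ± 70.9 CPM, with every library above every untreated one (2.81 ± 0.25, adjusted p = 0.000344) and PRR5 to 0.62 ± 0.37 CPM (-4.17 ± 0.69, adjusted p = 0.00432). The mock libraries of LHY at 24 h, from 165.4 to 216.2 CPM, also lay above every untreated one, which reached 135.3 CPM. At 168 h 5 clock genes stood above and 1 below untreated, where 15.1% of all genes rose and 16.1% fell. Among them was CCA1, the partner of LHY, at 298 ± 3.84 against 108 ± 6.31 CPM (1.47 ± 0.26, adjusted p = 0.00212). The mock libraries of CCA1 at 24 h, from 124.7 to 187.6 CPM, also lay above every untreated one, which reached 114.9 CPM. No clock gene passed for mock at 24 h against untreated or for GA3 against mock in edgeR's test. The part of the hour of the day in these shifts was not tested.

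Among 12 tested further CONSTANS-like genes, 3 rose and 0 fell at 3 h of GA3, against 8.55% and 5.64% of all genes. COL1 had fallen there. COL15 went from 10.8 ± 1.25 to 33.6 ± 13.6 CPM (1.64 ± 0.29, adjusted p = 0.00421) and COL13 from 4.9 ± 2.5 to 19.3 ± 1.86 CPM (1.98 ± 0.31, adjusted p = 0.00223). From 3 h to 24 h 3 of the 12 fell, against 5.72% of all genes. COL13 fell by 2.84 ± 0.32 and COL15 by 2.53 ± 0.30 on the log2 scale. At 168 h against untreated 2 of 12 had fallen, near the 16.1% of all genes. They were COL8 from 16.3 ± 2.3 to 1.19 ± 1.02 CPM (-3.78 ± 0.77, adjusted p = 0.00424, with -3.10 without 168 h replicate 1 and -5.17 without replicate 2) and COL9, a repressor of CO transcription, from 4.65 ± 1.19 to 0.878 ± 0.171 CPM (-2.40 ± 0.51, adjusted p = 0.00537). With mock at 24 h COL8 did not pass, but its libraries (3.96 to 8.175 CPM) lay below every untreated one (at least 13.9 CPM). The lists' median log2 fold change at 3 h was 0.16 for the 12 CONSTANS-like genes and 0.36 for the clock genes, against 0.00 over all genes.

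Of the 4 bHLH activators of CO, FBH3 and FBH2 rose. FBH3 went from 16.1 ± 7.48 CPM untreated to 56.6 ± 19.2 CPM at 3 h of GA3 (1.82 ± 0.36, adjusted p = 0.00771) and 126 ± 11.5 CPM at 168 h (2.97 ± 0.40, adjusted p = 0.000699). FBH2 rose to 19.5 ± 2.48 CPM at 168 h from 8.28 ± 2.68 CPM (1.23 ± 0.25, adjusted p = 0.00422). With mock at 24 h neither passed, but the libraries of both lay above every untreated one. FBH3 held 26.96 to 53.68 CPM there against at most 24.65 CPM untreated, and FBH2 14.04 to 15.21 CPM against at most 10.98 CPM. FBH1 went the other way at 3 h, from 29.1 ± 3.59 to 19.0 ± 1.07 CPM (-0.61 ± 0.16, adjusted p = 0.0268), a call lost without any 1 of the other 5 libraries than untreated replicate 1 (adjusted p from 0.0533 to 0.102). FBH4 did not pass, at 16.7 ± 2.88 CPM untreated and 9.02 ± 1.45 CPM at 3 h. In this list of 16 regulators of CO transcription or CO protein, 2 rose and 1 fell at 3 h, 3 rose at 24 h and 6 rose at 168 h of GA3 against untreated. Over all genes 8.55% rose and 5.64% fell at 3 h, 2.92% rose at 24 h and 15.1% rose at 168 h. SPA4, which helps degrade CO protein in the dark, was among the last, at 52.1 ± 7.62 against 16.5 ± 4.65 CPM (1.66 ± 0.36, adjusted p = 0.00612). Its mock libraries at 24 h, from 24.75 to 36.52 CPM, did not pass but lay above every untreated one, which reached 21.84 CPM. Of 5 NF-Y partners of CO, 2 rose and 1 fell at 168 h, against 15.1% and 16.1% of all genes, and NF-YB2 rose from 23.8 ± 5.84 to 151 ± 46.8 CPM (2.66 ± 0.29, adjusted p = 0.000419). With mock at 24 h NF-YB2 did not pass, but its libraries (40.55 to 60.4 CPM) lay above every untreated one (at most 30.49 CPM).

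FT and TSF, the targets of CO, had their highest group means at different times, although the FT libraries of 3 h and of mock at 24 h overlapped. FT was at 4.65, 4.35 and 3.39 CPM in untreated leaves and at 43.0, 37.1 and 50.8 CPM at 3 h of GA3 (3.40 ± 0.43, adjusted p = 0.000793), although the counts do not show which stretch of this disrupted gene was read. TSF, the close relative of FT, was at 0.62, 1.29 and 0.159 CPM untreated and 12.9 and 10.03 CPM at 168 h (4.03 ± 0.92, adjusted p = 0.00731, and 4.83 without untreated replicate 2). At 3 h TSF was at 0.0441, 0.0488 and 0.575 CPM and did not pass. With mock at 24 h TSF held 1.667 to 1.98 CPM, above every untreated library, and did not pass. With GA3 at 24 h it held 0.672 to 4.79 CPM. At 168 h FT was at 8.41 and 6.3 CPM and did not pass (0.83 ± 0.45). At 24 h FT lay at 15.8, 30.4 and 56.3 CPM with mock (3.05 ± 0.43 against untreated, adjusted p = 0.0144, lost without untreated replicate 2 at 0.0862 or replicate 3 at 0.102) and at 9.16, 12.9 and 20.5 CPM with GA3, and these groups overlapped (-1.27 ± 0.40, adjusted p = 0.75).

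COL2, CO and COL1 lie where genes of the opposite strand are annotated, and the strand-specific column decides what is seen of them. COL1 lies wholly inside AT5G15845, a long non-coding RNA gene on the plus strand, with 1807 bases shared. COL1 had 953 to 3036 counts per library on its own strand and 0 in every library of the column that ignores strand. The gene AT5G15843 covers 1967 bases of CO on the plus strand, and CO had 122 counts on its own strand over all libraries against 97 on the opposite one. LKP2 shares 370 bases with AT2G18917, a long non-coding RNA gene on the plus strand, and its counts without strand were 76.6% of those on its own strand. COL2 overlaps AT3G02370 by 771 bases at its 3′ side and AT3G02390 by 688 bases at its 5′ side. Reads on the opposite strand of COL2 made up 4.73% to 49.7% of its reads per library, while over the tested genes the median was 0.866%. For GI, FKF1, ZTL, LKP2, CDF1, CDF2 and CDF3 the share over all libraries lay between 0.752% and 1.81%.

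The opposite-strand reads at COL2 had their own pattern. They numbered 340, 228 and 183 in untreated leaves, 56, 58 and 83 at 3 h of GA3, 81, 202 and 280 at 24 h, 115, 226 and 375 in mock, and 132 and 331 at 168 h. The 3 h libraries lay below all untreated ones on this strand, as they did on the own strand. At 24 h of GA3 the own strand held 1633 to 1870 counts, above all 719 to 993 untreated, and the opposite strand overlapped with untreated. GA3 3 h replicate 3, with 84 own-strand counts, gave the highest share. Counts per gene do not show how many of these reads belong to the 2 neighbours and how many to another transcript. AT3G02390 itself had 9 to 119 counts per library and AT3G02370 71 to 229. The 375 reads in mock replicate 3 thus cannot all be among those counted for these neighbours.

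**Figure D4:**
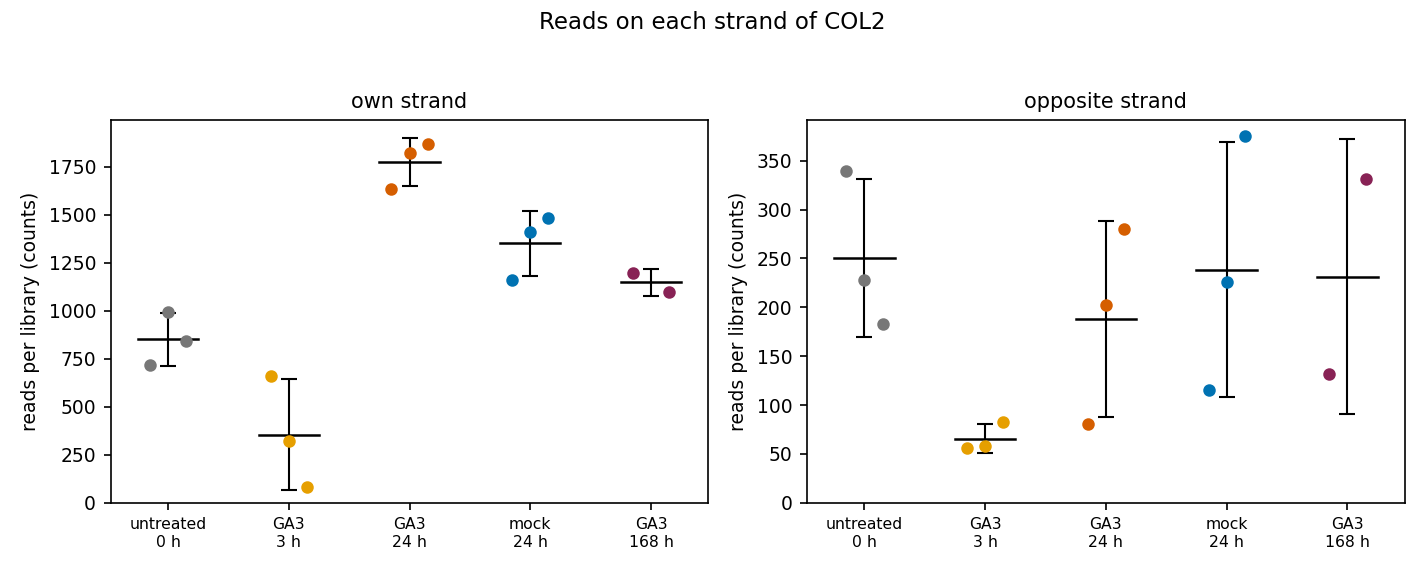
Reads on the own strand (left) and on the opposite strand (right) of COL2 in each library (counts, y axes from 0 and on different scales); points are libraries, lines the mean and bars the SD. The 3 h libraries are lowest on both strands (84 to 658 and 56 to 83 counts, the latter overlapping the 81 of 1 GA3 24 h library), and the 24 h GA3 libraries are highest on the own strand. The counts are not scaled to library size. In CPM the lowest GA3 24 h library of COL2 was at 75.94 and the highest mock library at 75.93.

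Genes with a pattern most like that of GI, by Pearson's r of log2 CPM over the 14 libraries among tested genes with a symbol, were bZIP23 (r = 0.964), TCP2 (0.958), DPE2 (0.957), UMAMIT46 (0.95) and CCoAOMT1 (0.95). For CDF1 they were ABCC14 (0.95), CNGC4 (0.929), SPA1 (0.926), APR1 (0.922) and PHT4;1 (0.918). For CO, whose counts were low, they were EMB269 (0.805), ZFN2 (0.804), PME5 (0.791), EMB3126 (0.787) and RHM3 (0.781). These values describe 14 libraries that share groups, and carry no test. CPM of DPE2, which breaks down maltose from starch at night, ran from 54.5 to 171 over the libraries, and that of bZIP23, a zinc-deficiency regulator, from 2.76 to 12.04.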

How the data were processed

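RNA sequencing of rosette leaves gave 14 libraries. The authors deposited raw read counts per gene for each library, made with STAR 2.7.7a on TAIR10 per the submitters' processing notes; the annotation, trimming and strand setting are not given in the sources used here. Counts of the strand with most reads were used, as the opposite strand held 4.86% to 5.51%. Reads outside genes stayed out of library sizes: unmapped 1.53% to 3.2%, multimapping 0.978% to 4.65%, in no feature 1% to 2.71%, ambiguous 0.268% to 0.671%. Coordinates come from TAIR10.1, which held 32547 of the 34218 genes. Libraries were no copies of each other (chi-square per degree of freedom 19.3 to 150 within groups).

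The 14 libraries entered 1 model of edgeR 4.0.16 in R 4.3.3 (TMM factors, filterByExpr, quasi-likelihood F test). P-values were adjusted by Benjamini-Hochberg over all 20077 genes kept, and 0.05 was the threshold. Each SE is the absolute log2 fold change over the square root of its F value. The design text calls replicates biological and names no plant, and the spread of the 168 h group rests on the other groups too. The fit was tested on simulated data. Alternatives used DESeq2 1.42.0, limma-voom 3.58.1, other scalings and filters, the 2 groups alone, the column without strand, a replicate block and each library left out. Members, lists, motifs and the naming rule (all members, list genes by smallest p, the 5 most alike) were chosen with earlier results of these data known. Levels per kilobase divide CPM by the longest annotated transcript.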

Additional observations from a re-analysis of the deposited data

How the results depend on the processing

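No value that passed the test changed sign under an alternative. Between GA3 and mock at 24 h, where no member passed, values near 0 did. LKP2 moved to -0.06 with total counts as library size and to -0.0015 with limma-voom, and CDF2 to 0.02 with limma-voom. With 1 library left out, ZTL ranged from -0.11 to 0.24, LKP2 from -0.19 to 0.13, COL1 from -0.20 to 0.17, CDF2 from -0.33 to 0.25 and TSF from -0.39 to 0.95. The causes were not tested. The numbers of members that passed include FKF1 here, whose calls in comparisons with 3 h carry no weight for the reason given above. The number for mock against untreated was 1 and became 0 with total counts, limma-voom or counts that ignore strand (8 members left to test), 2 with DESeq2, and 0 to 0 with 1 library left out. For GA3 at 24 h against untreated it was 1 and became 2 with DESeq2, 0 with the 2 groups alone, and 0 to 2 with 1 library left out. From 3 h to 24 h of GA3 it was 3 and became 5 with DESeq2, 1 with the 2 groups alone, and 1 to 4 with 1 library left out. From 24 h to 168 h it was 1 and became 3 with total counts, and 0 to 4 with 1 library left out. At 168 h against untreated it was 3, with 4 by DESeq2 (CO added) and 1 to 3 when 1 library was left out. At 3 h against untreated it was 4, with 6 by DESeq2 and by limma-voom (COL2 and CDF1 added), 5 with total counts and 3 to 5 when 1 library was left out.

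With the replicate block, the number for GA3 at 24 h against untreated became 2, with CDF1 added (adjusted p = 0.0316). At 3 h against untreated it became 5, with CDF1 added (0.0260), and from 3 h to 24 h of GA3 4, with GI (0.0198) and COL1 (0.0496) added and CDF2 lost (0.051). No other member's call changed with the block. The labels give replicate numbers but no shared plant or day, so the numbers were not taken as pairs. Of 26 same-numbered pairs of libraries from different groups, 10 had deviations from their group means correlated above 0.1 (median 0.0353, range -0.286 to 0.309). Of 52 pairs with different numbers, 12 did (median -0.0403, range -0.334 to 0.334). Whether libraries of the same number share a batch was not tested. Depth limits CO and FKF1 most.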

Other observations

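FKF1 is left out of the following pairs, since it was tested only because it was high at 3 h. Over the 14 libraries, the pairs with the highest Pearson's r of log2 CPM were GI with CDF1 (0.755), ZTL with CDF3 (0.709) and ZTL with LKP2 (0.602). The lowest were GI with CDF2 (-0.625), LKP2 with COL2 (-0.516) and CO with CDF1 (-0.471). These values describe libraries that share groups, and the counts of CO were low.

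Within a group, the ratio of the highest to the lowest library was 4.02 for GI at 24 h of GA3 and 1.42 in mock, 8.41 for COL2 at 3 h of GA3 and 1.02 for ZTL at 3 h. GA3 24 h replicate 1 held the most GI (55.3 CPM), ZTL (60.7 CPM), LKP2 (25.8 CPM), COL1 (94.95 CPM) and CDF3 (94.8 CPM) of its group and the least CDF2 (21.5 CPM) and COL2 (75.94 CPM).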
